A study of Mus musculus with 6 samples.

Results

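The genes described here are 42 interferon-inducible genes of the interferon response and of antigen processing, listed by name and each read through its brightest probe set, the one with the highest mean signal over 6 arrays. The arrays were hybridised with RNA of Ba/F3, an interleukin 3-dependent line of mouse pro-B cells, transduced with an inducible retroviral system (Retro-X Tet-On Advanced) for NCOR1-LYN, a fusion of the nuclear corepressor NCOR1 with the SRC-family tyrosine kinase LYN. The control group held 3 cultures of the transduced cells without doxycycline (genotype control), and the NCOR1-LYN group held 3 cultures given doxycycline (genotype expressing NCOR1-LYN), numbered 1 to 3 in both groups. All cultures carried the construct. Doxycycline was given to every NCOR1-LYN culture and to no control, so the drug and the fusion cannot be told apart. The labels call the cultures triplicates and say no more on how separate they were, and do not say whether the cells were 1 clone or a pool, so a p-value here speaks only of the spread among 6 arrays, which may be technical.

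Of the 42 genes, 40 had a probe set that names 1 gene. Isg15 shares its probe set with another symbol and Ifi44 was not matched, and neither has a value here. Of the 40, 30 lay above the filter on dim genes (a mean of log2(signal + 64) equal to that of a signal of about 47) and were tested among 10916 genes of 18193 with a probe set, and the other 10 are given as signals. Signals are MAS5 probe set intensities on a linear scale, and every change is a difference of log2(signal + 64), which understates the change of dim genes.

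Interferons bind receptors that activate JAK kinases. These phosphorylate transcription factors of the STAT family. The complex ISGF3, which holds STAT2 and IRF9, binds interferon-stimulated response elements (ISRE), and gamma-activated sites (GAS) are the other element of the pathway, in promoters of genes that sense viral RNA, block virus growth or load peptides on MHC class I. USP18 and SOCS1 restrain the pathway. Many cell lines hold a low tonic level of these transcripts without added interferon.

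Replicate 1 stood apart in both groups. On the first principal component (58.1% of the variance over the genes tested) control 1 lay at −37.3 and NCOR1-LYN 1 at −25.1, while the 4 other arrays lay between 12.1 and 18.7. Values are therefore given pair by pair, a pair being the NCOR1-LYN and the control array of one replicate number, with the replicate number as a block, and without both replicate 1 arrays. The median change over all genes tested was −0.01. Of 10 measured pro-B markers, 4 lay above the filter. Ptprc (CD45) had signals of 8278 to 10434 and Cd79b 403 to 577. Pax5 (7.7 to 125) and Igll1 (13.9 to 179) lay above the filter by their means but were uneven between arrays. Cd79a, Vpreb1, Ebf1, Rag1, Il7r and Blnk lay below the filter, so most of the markers measured for the labelled cell type were dim here. Markers of plasmacytoid dendritic cells, which make interferon (4 of 6 above the filter, Bst2 of the listed genes among them), summed to 2163 to 4546 in controls and 2119 to 5968 with NCOR1-LYN, with Siglech at 7.4 to 74.2 and Ccr9 at 16.6 to 39.0, below the filter. Cox6a2 of that list had 585, 236 and 218 in controls and 2783, 222 and 104 with NCOR1-LYN. Cox6a2 was thus highest in replicate 1 of both groups, as many listed genes were. Tcf4 (509 to 673) and Klk1 (340 to 465) of the same list were higher in every pair. Their pair changes were 0.01, 0.09 and 0.18 for Tcf4 and 0.06, 0.39 and 0.02 for Klk1. Markers of macrophages and dendritic cells (2 of 7 above the filter) summed to 950 to 1410 and 542 to 1284, with C1qa at 2.2 to 3.3 and C1qb at 3.9 to 51.0. Of the 2 above the filter, Cd68 had 206, 290 and 260 in controls and 83.2, 181 and 149 with NCOR1-LYN, lower in every pair without overlap (adjusted p = 0.117 with the block in limma), and Adgre1 had 375 to 1012 with its lowest signals in replicate 1. Myeloid markers (8 measured, 5 above the filter) summed to a signal of 2295 to 2558 in controls and 6942 to 10320 with NCOR1-LYN. Most of this was Ngp (means 822 and 4439) and Prtn3 (1195 and 3618), and Prtn3 was level in pair 1 (1763 and 1746). Ngp, Ltf (means 60.8 and 567) and Mpo (125 and 215) were higher in every pair, and Csf1r was not (147 and 139). Elane, Csf3r and Itgam lay below the filter. The part of these cell types in the changes below was not tested. In RNA of whole cultures, fewer cells that express a gene and less RNA per cell cannot be told apart.

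Most of the tested genes stood lower with NCOR1-LYN, by amounts that the spread between arrays mostly covered. Usp18 had the largest change, −1.54, followed by Irf7 (−0.80), Xaf1 (−0.78), Ddx58 (−0.73), Ifih1 (−0.60) and Irgm1 (−0.59). Of the 30 genes, 27 had a negative change, against 52.8% of all genes tested, and the median was −0.33. Lower in all 3 pairs were 20 of the 30, against 18.9% of all genes, and higher in all pairs was 1 (Ifi35), against 15.9%. The medians of pairs 1, 2 and 3 were −0.45, −0.23 and −0.13. Signals of the groups did not overlap, with NCOR1-LYN lower, for 6 genes (Usp18, Ddx58, Ifit2, Oasl1, Dtx3l and Lgals3bp), against 6.06% of all genes. These counts describe a list that earlier results on these arrays had already shown to stand lower.

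Tested singly, 0 of the 30 passed an adjusted p of 0.05 in limma without a block, where 0.0824% of all genes passed, and 4 had an unadjusted p under 0.05 (Ddx58, Usp18, Lgals3bp and Trim25). With the replicate number as a block 1 of 30 fell, Usp18, where 0.824% of all genes passed. In the same fit 15 of 30 had an unadjusted p under 0.05, all lower. Of the 10916 genes, 1231 had such a p, 732 of them lower. Without both replicate 1 arrays 9 of 30 passed, 8 lower (Usp18, Irf7, Ddx58, Adar, Trim25, Xaf1, Lgals3bp and Irgm1) and 1 higher (Psmb9), where 6.78% of all genes passed. That fit rests on 2 arrays a group. Without control 1 the median of the list was −0.13 in place of −0.33.

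**Figure D1:**
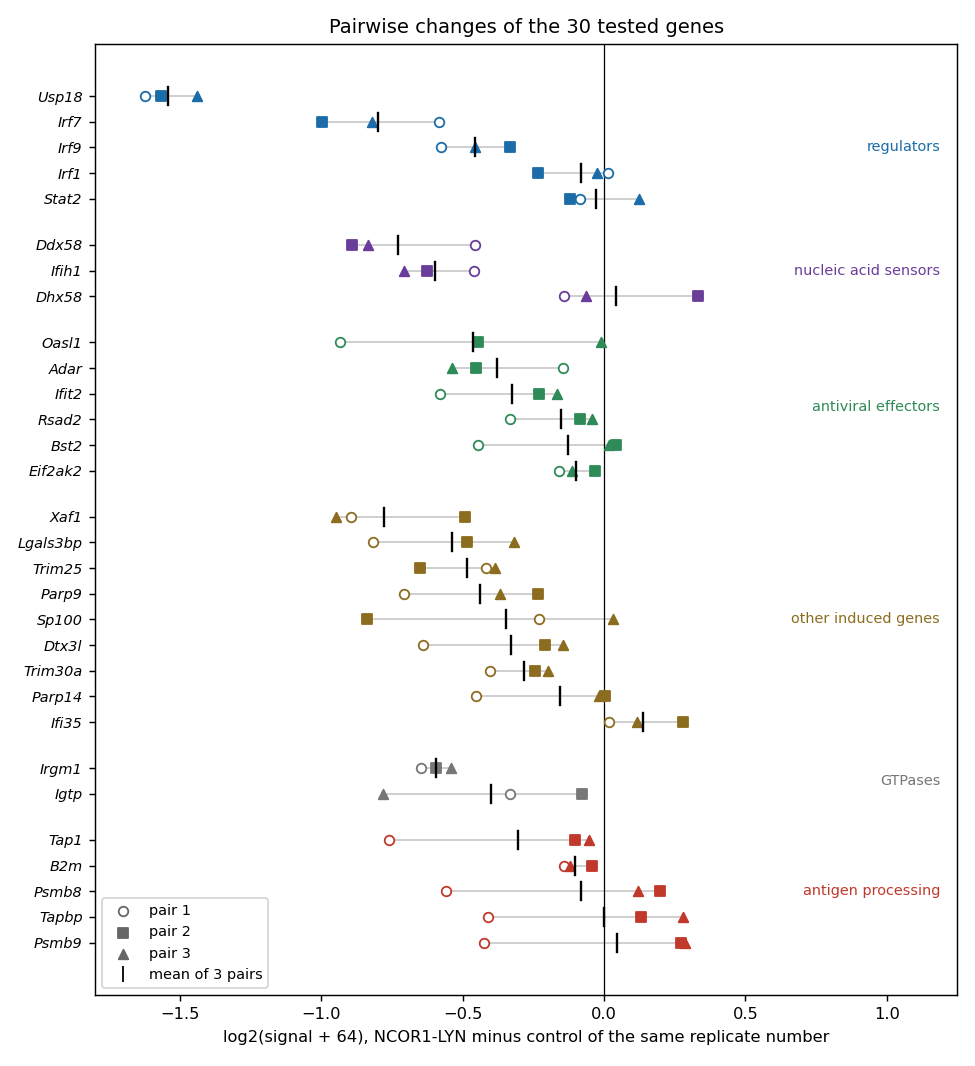
Change of each of the 30 tested genes in each replicate pair, on the horizontal axis as log2(signal + 64) of NCOR1-LYN minus the control of the same number (open circle, pair 1, filled square, pair 2, filled triangle, pair 3, bar, mean of the pairs), with genes grouped by role and ordered by mean. Usp18 lies near −1.5 in all pairs, while Psmb8, Psmb9 and Tapbp lie below 0 in pair 1 and above 0 in pairs 2 and 3.

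**Figure D2:**
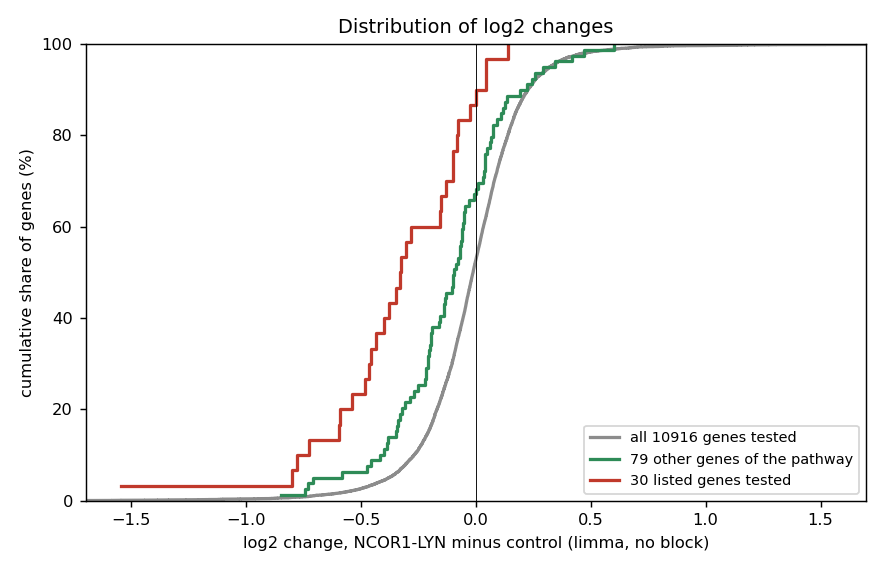
Cumulative share of genes (vertical axis, %) by log2 change without a block (horizontal axis) for all 10916 genes tested, 79 other genes of the pathway and the 30 listed genes. The listed genes lie to the left, with a median of −0.33 against −0.09 for the other pathway genes and −0.01 for all genes.

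Of the 5 listed regulators, Usp18, Irf7 and Irf9 were lower in all pairs, and of these Usp18 passed with the block. Usp18, a protease that removes ISG15 from proteins and blocks the interferon receptor, had signals of 803, 271 and 231 in controls 1, 2 and 3 and 217, 49.2 and 44.6 in NCOR1-LYN 1, 2 and 3. The group means were 435 ± 320 and 104 ± 98.4 (SD, n = 3 each). Every NCOR1-LYN array lay below every control, and in both groups replicate 1 was the highest. The pairs changed by −1.62, −1.57 and −1.44. Usp18 fell by 1.54 ± 0.13 with the block (SE, adjusted p = 0.00704 in limma), against ± 0.51 and adjusted p = 0.776 without it. NCOR1-LYN 2 and 3 lay near the filter (a signal of about 47), where the offset added to each signal understates a change. The smaller offset of 16 was run only without the block, with a Usp18 change of −1.99. As plain ratios of the signals above, without an offset, the fall was smaller in pair 1 than in pairs 2 and 3. The near-equal pair changes of Usp18 thus depend on the offset. Its SE and adjusted p with the block were not tested under another offset. Usp18 had no second probe set among those used. Irf7, the transcription factor that amplifies interferon production, had 670, 299 and 298 in controls and 426, 118 and 141 with NCOR1-LYN. The groups overlapped because NCOR1-LYN 1 lay above controls 2 and 3, yet each array was below the control of its own number, with pair changes of −0.58, −1.0 and −0.82. The adjusted p in limma was 0.065 with the block, 0.999 without it and 0.00483 without both replicate 1 arrays (2 arrays a group). Irf9, the DNA-binding part of ISGF3, went the same way from 1156, 610 and 578 to 753, 471 and 404, with a change of −0.46 ± 0.31 (adjusted p = 0.169 with the block).

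The other regulators showed little difference in their brightest probe sets. Stat2, which joins IRF9 in ISGF3, had 340, 350 and 290 in controls and 318, 317 and 322 with NCOR1-LYN, a change of −0.03 ± 0.14. A second Stat2 probe set (mean signal 187) was uneven, with pair changes of −0.35, 0.32 and 0.61. Irf1, a transcription factor induced mainly by interferon gamma, had pair changes of 0.01, −0.23 and −0.03 (−0.08 ± 0.20).

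Of the sensors of viral nucleic acid, both RNA helicases that signal to interferon stood lower. Ddx58 encodes RIG-I, and its signals were 1315, 1218 and 1076 in controls and 942, 626 and 575 with NCOR1-LYN, without overlap (means 1203 ± 120 and 714 ± 199, SD, n = 3 each). Its change was −0.73 ± 0.20 without a block (adjusted p = 0.592) and ± 0.12 with it (adjusted p = 0.0633), and a second Ddx58 probe set (mean signal 186) had pair changes of −0.37, −0.41 and −0.77. Ifih1, which encodes MDA5, went from 171, 119 and 85.7 to 107, 54.7 and 27.6. Its pair changes were −0.46, −0.63 and −0.71 (adjusted p = 0.18 with the block), and the groups overlapped. Dhx58, the gene of LGP2, a helicase of the same family that tunes both, lay near the filter on every array (38.3 to 73.3) with a change of 0.04 ± 0.16. Zbp1, a sensor of Z-form nucleic acid, was below the filter, at 10.3 to 79.6.

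The antiviral effectors were a mixture of bright genes with small changes and dim genes. Adar, an RNA-editing enzyme, had 1392, 816 and 785 in controls and 1251, 579 and 521 with NCOR1-LYN. Its pairs changed by −0.15, −0.45 and −0.54 (adjusted p = 0.295 with the block), and of its other probe sets 1 (mean signal 374) had −0.26, −0.42 and −0.12 and 1 (mean signal 227) the opposite, 0.35, 0.24 and 0.40. Ifit2, a protein that binds viral RNA, had 1005, 948 and 1022 in controls and 651, 798 and 903 with NCOR1-LYN. The groups did not overlap, and its change was −0.33 ± 0.15 (adjusted p = 0.999). Oasl1, an oligoadenylate synthetase-like protein that limits translation of Irf7, went from 291, 167 and 136 to 122, 105 and 134, with pair changes of −0.93, −0.45 and −0.01. Eif2ak2 (PKR, a kinase that stops translation) had −0.10 ± 0.13 and Rsad2 (viperin) −0.15 ± 0.15, the latter near the filter at 36.5 to 62.7. Bst2 (tetherin, which holds budding virus at the membrane) had 2853, 1004 and 973 in controls and 2075, 1035 and 987 with NCOR1-LYN. Bst2 was thus lower in pair 1 (−0.45) and at nearly the same level in pairs 2 and 3 (0.04 and 0.02).

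Ifit1, Ifit3, Oasl2, Mx1, Mx2 and Cmpk2 lay below the filter, with signals of 2.6 to 120. Of these dim effectors, Ifit1 had 64.6, 37.9 and 55.7 in controls and 27.1, 6.5 and 22.8 with NCOR1-LYN, and Cmpk2, a mitochondrial nucleotide kinase gene beside Rsad2, had 7.4, 51.6 and 63.1 and then 8.2, 6.5 and 3.9. Signals at this height are noisy. These genes were tested only in the alternative without a filter, where 0 of 40 listed genes passed against control.

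Of the other induced genes, Xaf1, Lgals3bp, Trim25 and Parp9 stood lowest. Xaf1, which encodes a factor that promotes cell death, went from 1029, 365 and 351 to 523, 241 and 151. The pairs changed by −0.90, −0.49 and −0.95 (adjusted p = 0.0711 with the block). Trim25, the ubiquitin ligase that activates RIG-I, went from 4551, 3536 and 3350 to 3391, 2226 and 2550, with a change of −0.49 ± 0.19 (adjusted p = 0.985 without and 0.101 with the block). Its other probe sets (mean signals 2195 and 220) had −0.53 and −0.41. Lgals3bp, a secreted glycoprotein, had 5385, 3374 and 3345 in controls and 3032, 2395 and 2673 with NCOR1-LYN, without overlap, and −0.54 ± 0.21 (adjusted p = 0.122 with the block).

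Parp9 and Dtx3l encode partners in one ubiquitin ligase complex. Parp9 had pair changes of −0.71, −0.23 and −0.37 and Dtx3l of −0.64, −0.21 and −0.15, so both were lowest in pair 1. Parp14, a related ADP-ribosyltransferase, had −0.45, 0.00 and −0.02, and Trim30a had −0.40, −0.25 and −0.20. Sp100, a nuclear body protein, was uneven (−0.23, −0.84 and 0.03). Ifi35 went the other way, from 3388, 3249 and 3326 to 3435, 3952 and 3616 (0.14 ± 0.11). Its other probe sets had mean changes of 0.10 and −0.21. Rtp4 lay below the filter at 1.3 to 22.9.

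Immunity-related GTPases attack the vacuoles of intracellular microbes. The 2 listed ones that were tested, Irgm1 and Igtp, were lower in every pair, and neither passed with or without the block. Irgm1 passed without both replicate 1 arrays (adjusted p = 0.0165 in limma, 2 arrays a group), and Igtp did not. Irgm1 went from 1150, 636 and 552 to 712, 400 and 359, with nearly equal pair changes of −0.65, −0.59 and −0.54 (± 0.11 with the block, adjusted p = 0.0732). Igtp (Irgm3) went from 1111, 703 and 697 to 868, 662 and 378, with −0.33, −0.08 and −0.78. Of their relatives outside the list, named after their values were seen, Irgm2 was slightly higher in every pair (0.07, 0.08 and 0.11) and Iigp1 was mixed (0.20, −0.18 and 0.10). Gbp2 and Gbp3, guanylate-binding proteins, lay below the filter (1.2 to 84.3). Gbp3 had 84.3, 40.5 and 58.3 in controls against 37.6, 30.1 and 34 with NCOR1-LYN.

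**Figure D3:**
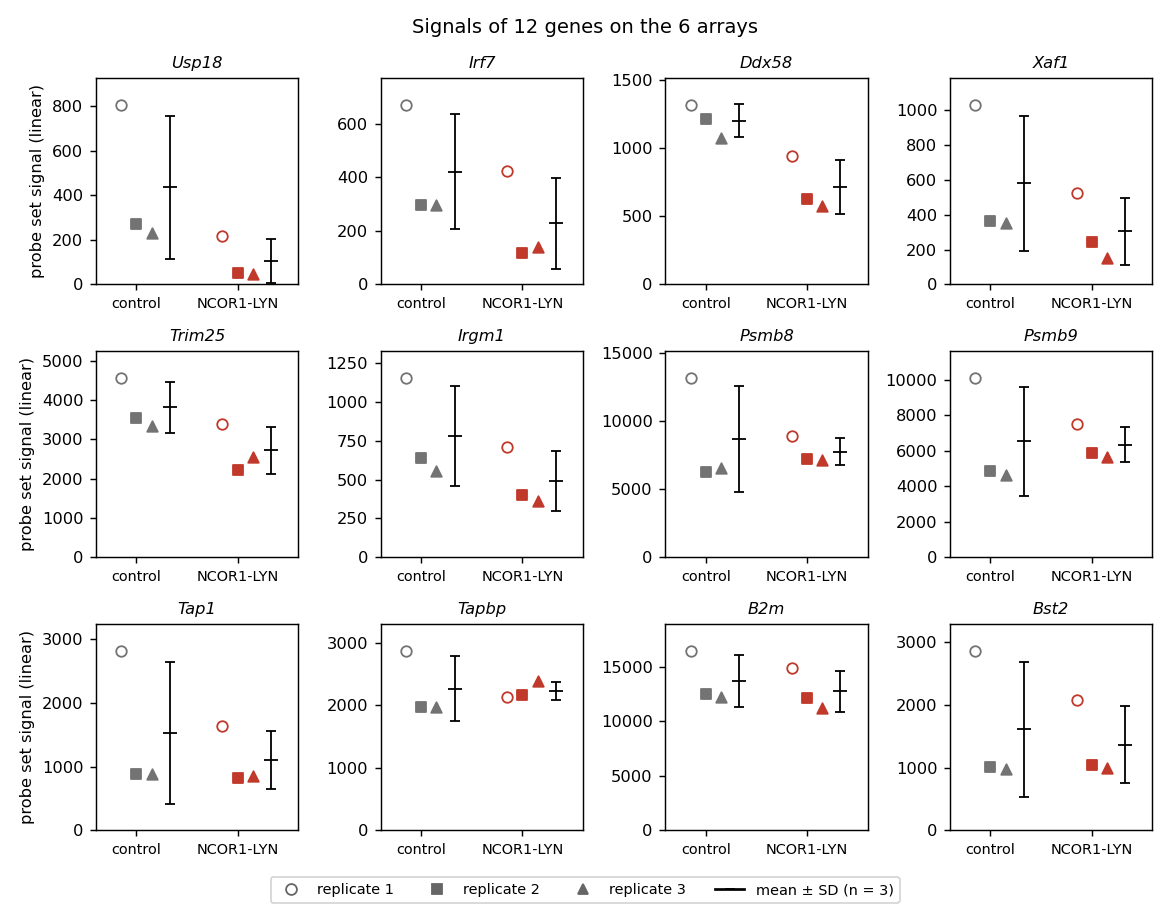
Probe set signal (vertical axis, linear, from 0) of 12 genes on the control and NCOR1-LYN arrays, with replicates 1 (open circle), 2 (square) and 3 (triangle) and the mean ± SD of 3. Usp18 and Ddx58 separate the groups, and in all 12 genes the control 1 array stands above the other 5.

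Of the 5 antigen processing genes, 3 were lower in pair 1 and higher in pairs 2 and 3, and 2 were lower in every pair. Psmb8 and Psmb9 encode immunoproteasome subunits that replace constitutive ones when interferon is present. Psmb8 had 13140, 6263 and 6589 in controls and 8900, 7194 and 7171 with NCOR1-LYN. The means were 8664 ± 3880 and 7755 ± 992 (SD, n = 3 each). Control 1 was far above the other arrays, so that pair 1 changed by −0.56 and pairs 2 and 3 by 0.20 and 0.12. Psmb9 had 10082, 4872 and 4625 in controls and 7500, 5892 and 5656 with NCOR1-LYN. Its pairs changed by −0.42, 0.27 and 0.29, a mean of 0.04 ± 0.30. Tap1, a subunit of the transporter that carries peptides into the endoplasmic reticulum, had 2804, 889 and 887 in controls and 1628, 823 and 854 with NCOR1-LYN, with pair changes of −0.76, −0.10 and −0.05. Tapbp (tapasin, which holds MHC class I at the transporter) had 2860, 1973 and 1963 and then 2135, 2165 and 2393, with −0.41, 0.13 and 0.28. B2m, the light chain of MHC class I, had 16441, 12508 and 12214 and then 14900, 12157 and 11220, and its pair changes were small (−0.14, −0.04 and −0.12).

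The change in pair 1 was set against the mean change in pairs 2 and 3 by a product term in limma. Of the 30 genes, 5 passed, all more negative in pair 1, where 12% of all genes tested passed. For the whole list that share is near the background. The 5 were Psmb8 (−0.72 ± 0.10, adjusted p = 0.00318), Psmb9 (−0.70 ± 0.11, 0.00403), Tap1 (−0.68 ± 0.13, 0.0112), Tapbp (−0.62 ± 0.12, 0.0142) and Bst2 (−0.48 ± 0.13, 0.041). The antigen processing genes thus gave 4 of 5, with B2m not passing (−0.06 ± 0.11, adjusted p = 0.793), and the other genes 1 of 25. That split depends on the threshold. At an unadjusted p under 0.05 the other genes gave 6 of 25, against 2956 of all 10916 genes. These were Bst2, Lgals3bp, Dtx3l, Oasl1 and Ifit2, more negative in pair 1, and Ddx58, less negative. Oasl1 differed by −0.70 ± 0.29 (adjusted p = 0.162) and Lgals3bp by −0.42 ± 0.12 (adjusted p = 0.0569). Usp18 (−0.12 ± 0.26), Irgm1 (−0.08 ± 0.19) and Xaf1 (−0.18 ± 0.28) did not pass, and Irf7 and Ddx58 had positive differences (0.33 ± 0.23 and 0.41 ± 0.16, adjusted p = 0.411 and 0.14). The test has 2 residual degrees of freedom, and its spread comes from replicates 2 and 3 alone. Without the filter on dim genes 3 of 40 listed genes passed, and 496 of all 18193 genes.

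**Figure D4:**
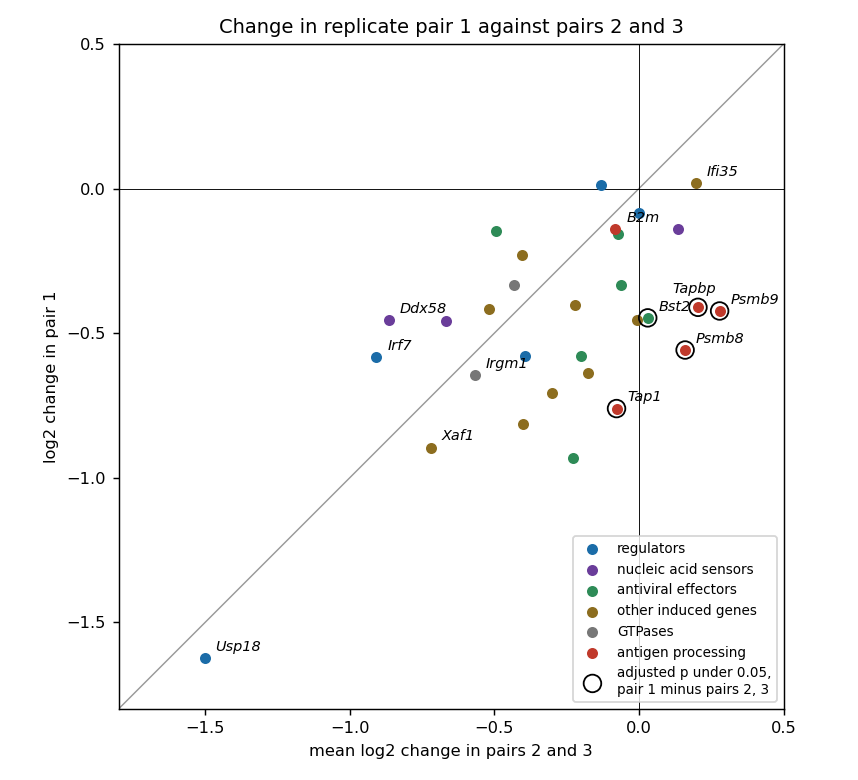
Log2 change in pair 1 (vertical axis) against the mean log2 change in pairs 2 and 3 (horizontal axis) for the 30 genes, coloured by role, with the line of equal change and rings around the 5 genes past an adjusted p of 0.05 for the difference. The ringed genes, Psmb8, Psmb9, Tap1, Tapbp and Bst2, lie below the line. Usp18 lies close to it with the offset used here.

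The listed genes also varied with the replicate number. Both replicate 1 arrays lay above the other 4 for 16 of the 30 genes, against 26.8% of all genes tested, and below them for 0, against 21.4%. Replicate 1 exceeded the mean of replicates 2 and 3 by a median of 0.67 in controls and 0.46 with NCOR1-LYN, against 0.05 and 0.03 over all genes. In controls the excess was 1.59 for Tap1, 1.47 for Bst2, 1.46 for Usp18, 1.37 for Xaf1, 1.08 for Psmb9, 1.03 for Psmb8 and 1.02 for Irf7. With NCOR1-LYN it was 0.91 for Tap1, 0.99 for Bst2, 1.34 for Usp18, 1.20 for Xaf1, 0.37 for Psmb9, 0.31 for Psmb8 and 1.34 for Irf7. For Psmb8, Psmb9, Tap1 and Bst2 the excess was smaller with NCOR1-LYN, which is the pair difference above in another form. Stat2, Ifit2, Eif2ak2, Dhx58, Rsad2 and Ifi35 had an excess of 0.08 or less in controls. For beta-actin, the 3′ over 5′ ratio (a measure of RNA integrity) was 1.168 and 1.151 on the replicate 1 arrays and 1.192 to 1.242 on the others, and its part in the excess was not tested.

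**Figure D5:**
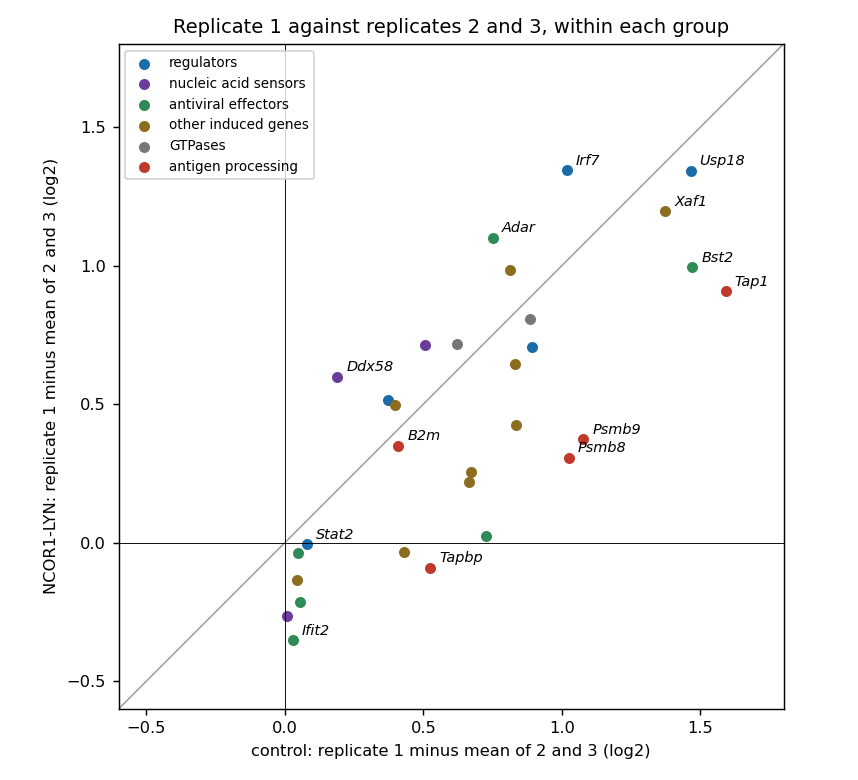
Excess of replicate 1 over the mean of replicates 2 and 3 (log2) in control cells (horizontal axis) and NCOR1-LYN cells (vertical axis) for the 30 genes, coloured by role, with the line of equal excess. Most genes lie above 0 on both axes, and Psmb8, Psmb9, Tap1 and Tapbp lie below the line.

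Promoter sequences of the genes are shown because the pathway acts through these 2 elements. RefSeq promoter windows (GRCm38.p6) matched 34 of the 42 genes, not Usp18. In the 250 bases before a listed start, 12 of 34 genes (35.3%) held the ISRE letters GAAANNGAAA on either strand, against 3.46% of 27025 genes. The GAS letters TTCNNNGAA, which read the same on both strands, were held by 6 (17.6%), against 8.13%. A match is only these letters in this window. The ISRE matches (capitals) of the 7 tested genes that had one, and of Ifit1 and Isg15, read as follows, 5′ to 3′ on the gene's strand, overlapping matches running together.
Irgm1 (chr11:48871423-48871462, minus strand): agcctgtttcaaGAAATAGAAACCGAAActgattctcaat
Igtp (chr11:58199510-58199543, plus strand): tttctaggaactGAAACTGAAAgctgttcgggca
Trim30a (chr7:104465208-104465241, minus strand): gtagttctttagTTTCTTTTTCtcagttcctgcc
Rsad2 (chr12:26456551-26456584, minus strand): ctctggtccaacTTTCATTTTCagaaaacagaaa
Bst2 (chr8:71537575-71537620, minus strand): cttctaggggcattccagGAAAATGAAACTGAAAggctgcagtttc
B2m (chr2:122147536-122147569, plus strand): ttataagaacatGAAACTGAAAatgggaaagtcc
Stat2 (chr10:128270264-128270297, plus strand): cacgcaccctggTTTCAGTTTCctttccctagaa
Ifit1 (chr19:34640773-34640825, plus strand): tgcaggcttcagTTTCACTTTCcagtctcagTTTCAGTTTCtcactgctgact
Isg15 (chr4:156200863-156200908, minus strand): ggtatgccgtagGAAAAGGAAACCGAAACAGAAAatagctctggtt

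These 7 tested genes had unlike changes, with Irgm1 at −0.59, Igtp at −0.40, Trim30a at −0.28, Rsad2 at −0.15, Bst2 at −0.13, B2m at −0.10 and Stat2 at −0.03. Irf7, Xaf1 and Ddx58, which were lower still, and Ifih1 (−0.60 ± 0.27), which was level with Irgm1, had no ISRE match in their windows. Usp18, with the largest change, had no window, and a link between change and match was not tested. In Irgm1 the first match began 30 bases before the start, in Igtp 34 and in B2m 139. The GAS letters lay 90 bases before the start of Irf1 and 97 before that of Psmb8, and those of Bst2 overlap its ISRE. The GAS matches (capitals) of Irf1, Ifit2, Eif2ak2 and Psmb8 read as follows.
Irf1 (chr11:53769912-53769944, plus strand): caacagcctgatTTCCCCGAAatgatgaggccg
Ifit2 (chr19:34550444-34550473, plus strand): catgggagcTTCCTGGAAgaatggataaaa
Eif2ak2 (chr17:78882730-78882762, minus strand): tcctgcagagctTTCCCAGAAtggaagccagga
Psmb8 (chr17:34198086-34198118, plus strand): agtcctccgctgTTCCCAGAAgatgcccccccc

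Psmb9 and Tap1 are divided by only 225 bases and are read in opposite directions, so they share 1 promoter region. The stretch between their starts (chr17:34187331-34187555, plus strand, which is that of Tap1) holds 0 ISRE and 0 GAS matches and 1 GC box (GGGCGG on either strand, found in 35.4% of all genes' windows), in capitals.
Psmb9-Tap1: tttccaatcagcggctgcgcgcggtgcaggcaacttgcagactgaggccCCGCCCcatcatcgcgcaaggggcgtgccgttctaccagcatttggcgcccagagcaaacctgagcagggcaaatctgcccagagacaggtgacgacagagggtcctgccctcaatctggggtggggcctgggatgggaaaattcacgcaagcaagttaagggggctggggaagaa
Both genes had the high control 1 signal described above, with an excess of replicate 1 in controls of 1.08 (Psmb9) and 1.59 (Tap1). In pairs 2 and 3 Psmb9 changed by 0.27 and 0.29 and Tap1 by −0.10 and −0.05.

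The other genes of the pathway were taken from lists of ligands, receptors, regulators, adaptors, induced genes and antigen processing genes. Of 125 listed, 102 had a probe set and 79 were tested. Without a block 0 passed in limma (5 at an unadjusted p under 0.05), and with the block 0 rose and 2 fell, Ifi47 and Ifi27, against 0.824% of all genes. Without both replicate 1 arrays 5 were higher and 9 lower, against 6.78% of all genes in either direction. Of the 79, 25 were lower and 8 higher in all pairs, against 18.9% and 15.9% of all genes, and their median change was −0.09. Ifi47, a GTPase related to Irgm1, had 963, 1001 and 966 in controls and 509, 529 and 502 with NCOR1-LYN. It had no excess in replicate 1, its groups did not overlap, and it fell by 0.85 ± 0.10 with the block (adjusted p = 0.0228, and 0.0904 without the block). Ifi27, a small mitochondrial protein, went from 9123, 5347 and 5080 to 5255, 3058 and 3218, with pair changes of −0.79, −0.79 and −0.65 (adjusted p = 0.0224 with the block, 0.963 without). Isg20, an exonuclease, had −0.95, −0.54 and −0.70 and Samd9l, a growth suppressor, −0.65, −0.55 and −0.55 (adjusted p = 0.0697 and 0.0711 with the block). The Schlafen genes parted, with Slfn2 at −0.16, −1.25 and −0.72 and Slfn8 at 0.31, 0.31 and 0.79.

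The ligands were dim. Ifna1, Ifna2, Ifna4, Ifnab, Ifnb1 and Ifng had signals of 1.1 to 78.1, none above the filter on average, with Ifnb1 at 37.6, 26.9 and 65.8 in controls and 40.4, 30.4 and 35.05 with NCOR1-LYN. The receptor chains were present. Ifnar1 had a change of −0.10 ± 0.14, Ifnar2 −0.09 ± 0.16, Ifngr2 −0.48 ± 0.30 (pairs −0.27, −0.70 and −0.46) and Il10rb −0.21 ± 0.17. Of the kinases that act on them, Jak1 had 0.04 ± 0.16 and Tyk2 pair changes of −0.69, −0.12 and 0.14. Of the 8 receptor and kinase genes tested, 2, Ifngr1 and Jak2, had the pattern of the immunoproteasome genes. Among the 79 other pathway genes the pair difference passed for 11 in the negative and 3 in the positive direction. Of all genes tested, 12% passed in either direction. Ifngr1 had 1131, 533 and 578 in controls and 822, 747 and 779 with NCOR1-LYN, and its pair 1 differed from the others by −0.85 ± 0.16 (adjusted p = 0.0102). Jak2 had 1817, 1181 and 925 and then 1451, 1636 and 1776, with a difference of −0.99 ± 0.19 (adjusted p = 0.0111).

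Among other regulators, Socs1, which shuts JAK kinases off, was higher in all pairs (0.71, 0.29 and 0.81) with signals of 99.4, 221 and 217 against 203, 285 and 428. It did not pass (adjusted p = 0.18 with the block). Irf3, the factor activated by RNA sensors, had −0.41, −0.39 and −0.24. The phosphatase gene Ptpn6 (SHP-1) and the adaptor gene Myd88 were higher in pairs 2 and 3 alone (0.32 and 0.51, 0.51 and 0.43). The pair difference passed for both (adjusted p = 0.0258 and 0.0193), which were 1 of 10 other regulators and 1 of 7 adaptors tested. Of 14 other antigen processing genes tested, the pair difference passed for 4, against 12% of all genes tested. Tap2, the partner of Tap1, was lower in pair 1 from 11310 to 5711 and level in pairs 2 and 3 (0.04 and −0.02), a difference of −0.99 ± 0.11 (adjusted p = 0.000852). H2-D1 had −0.39 ± 0.11 (adjusted p = 0.0485). H2-K1 and Canx, named after their values were seen, had pair changes of −0.78, 0.48 and 0.11 and of 0.27, −0.18 and −0.11. Nlrc5, the activator of MHC class I genes, had 660, 158 and 156 in controls and 429, 135 and 126 with NCOR1-LYN, so replicate 1 was the highest of both groups here too.

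Second probe sets read the same RNA. Of 17 further probe sets above the filter, for 13 of the tested genes, 14 had a change of the same sign as the brightest and 3 the opposite.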

How the data were processed

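RNA of 6 Ba/F3 cultures was hybridised to 1 Affymetrix mouse expression array each. The deposited values are linear intensities from MAS5. The submitters' processing notes name that tool, and its version is not given in the sources used here. The values show each array scaled to a mean of 500 after trimming 2% at each end. MAS5 subtracts mismatch signal, so dim probe sets are noisy. No detection calls or scanner files were used.

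Groups and replicate numbers came from the labels. Of 45101 probe sets, 34945 name 1 gene and entered. Each gene was read through the probe set with the highest mean signal, as log2(signal + 64), and genes whose mean of that log2 value lay below its 40th percentile were left out, which left 10916. Genes were tested with limma 3.58.1 (R 4.3.3, lmFit and eBayes with a trend), Benjamini-Hochberg over these genes, two-sided, threshold 0.05, with 4 residual degrees of freedom, or 2 with the replicate block or the product term for pair 1. The fits were tested on simulated data. Deviations from group means correlated at 0.618, 0.411 and 0.439 for arrays of the same number (across genes, which are not replicates), all above 0.1, and on this basis arrays of one number were treated as pairs. Control 3 correlated at 0.485 with NCOR1-LYN 2, so replicates 2 and 3 are not told apart by this.

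The members, lists, tests and alternatives were chosen with earlier results of these data known. All listed genes may be named. Of other pathway genes the rule names ligands, receptors and their kinases, genes past the threshold with or without the block, and up to 6 per list with the largest change. Alternatives were the block, an offset of 16, no filter or one at the 60th percentile, quantile normalization, median centring, the mean of all probe sets, each array left out, and both replicate 1 arrays left out. The number of arrays limits the precision.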

Additional observations from a re-analysis of the deposited data

Results flagged for a closer look

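In 5 listed genes the change with NCOR1-LYN in the replicate 1 pair differed from that in the pairs 2 and 3, by limma's product term (adjusted p under 0.05). The differences on the log2 scale were −0.72 for Psmb8, −0.70 for Psmb9, −0.68 for Tap1, −0.62 for Tapbp and −0.48 for Bst2. Of all genes tested, 12% passed the same test. With 3 arrays per group, single arrays were not tested for standing apart.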

How the results depend on the processing

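No listed gene passed without a block under an offset of 16, another filter, quantile normalization, median centring, the mean of all probe sets or any single array left out. With the replicate block 1 passed, and without both replicate 1 arrays 9 passed. The list's median was −0.33 and ran from −0.48 (without NCOR1-LYN 1) to −0.13 (without control 1) when single arrays were left out. The count of genes whose pair 1 change differed was 5, 3 of 40 without the filter on dim genes, and 4 to 6 otherwise. For 62 named genes, 829 of 851 alternative values kept their side of the threshold, 22 newly passed it and 0 reversed a change larger than its SE, while 48 changes within their SE changed sign. The block fit and the fit without replicate 1 rest on 2 residual degrees of freedom each. The 10 dim listed genes were tested only without the filter.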
